A study of Mus musculus with 12 samples.

Results

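The mouse Ssx genes are a family of testis-expressed gene copies on the X chromosome, most of which lie near each other. The 6 members described here are the rows named Ssxb10, Ssxb9, Ssxb2, Ssxb8, Ssx9 and Ssxb5 in a table of 952 X-linked genes, chosen by name. Of these 6, 5 had a value in all 8 ChIP libraries, as did 698 of the 952 genes. Ssxb9 had no value in the 2 libraries of SmcHD1-deficient fibroblasts.

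ChIP-seq, the sequencing of DNA recovered with an antibody to a chromatin mark, was done on cells of female mice with mouse monoclonal antibodies to H3K9me3 (CMA318) and H3K27me3 (CMA323). MD1 EpiSCs (Smchd1 MD1/MD1) were compared with WT EpiSCs (Smchd1 +/+), both epiblast stem cells labelled E6.5, a pluripotent cell type grown from the early embryo. MD1 MEFs (Smchd1 MD1/MD1) were compared with WT MEFs (Smchd1 +/+), both embryonic fibroblasts labelled E13.5. MD1 is a loss-of-function allele of Smchd1. Both genotypes in both cell types also carried Xist deltaA/+, a deletion in Xist that keeps the X bearing it from being silenced, and came from C57BL6/J crossed with an F1 of JF1 and C57BL6/J. Each mark was measured in 1 library per genotype and cell type, so no difference between genotypes or cell types has a replicate check and no test across samples was possible. The labels do not say whether a library came from 1 line, 1 embryo or a pool. The labelled cell types and the Smchd1 genotype could not be checked against their markers, because the table holds ChIP values of X-linked genes.

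In female mammals 1 X chromosome is silenced by Xist RNA, and the silent X carries H3K27me3, the mark of Polycomb repressive complexes, and H3K9me3, the mark bound by HP1 proteins in constitutive heterochromatin. SmcHD1 is a chromosomal protein of the SMC family that helps to keep the inactive X silent. The SSX proteins were named in humans, where a fusion of SS18 with an SSX gene drives synovial sarcoma, and they are known as cancer-testis antigens because healthy adult expression is largely restricted to the testis. Human SSX carries a KRAB-related domain and a C-terminal repression domain, and it binds nucleosomes with ubiquitylated histone H2A, a product of Polycomb repressive activity. Separate roles of the single mouse copies are not described here.

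All values are log2 enrichment of ChIP over input at a gene, as the authors deposited them. On the deposited scale a value of 0 means as much signal as input, negative values lie under input, and gene length cancels in the ratio. Each library also carries 1 unknown constant, so a difference between 2 libraries holds the ratio of 2 constants, whereas the order of genes within a library does not depend on it. Each value behaved as that constant times a ratio of whole numbers, and the smallest such pairs are given as the depth behind a value (the ChIP pair and the input pair). Intervals are 95% counting intervals computed from these pairs. They cover counting error only. Over all genes the input pairs had medians of 85 in MD1 EpiSCs, 78 in WT EpiSCs, 129.5 in MD1 MEFs and 99 in WT MEFs. The Ssx genes are short, 5514 to 8812 bases against a median of 20602 bases for the genes measured in all 8 libraries, and their input pairs ran from 13 to 113.

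The members span less than 1 Mb of the X. In mm9, counted from 1, Ssxb10 lies at chrX:7904550-7913361, Ssxb9 at chrX:7944104-7952514 and Ssxb2 at chrX:8031469-8038852. Further along are Ssxb8 at chrX:8262457-8267970, Ssx9 at chrX:8325556-8331713 and Ssxb5 at chrX:8380817-8386512. Ssxb2 and Ssxb8 are on the minus strand and the other 4 on the plus strand. Each value covers a whole gene, so exons, introns and untranslated regions are not separated. The table names 3 more Ssx genes in the same stretch that are not among the 6, of which Ssxb1 had no value in any library, and Ssxb6 and Ssxb3 had values in 6 libraries each and none in WT EpiSCs.

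Because the genes are copies of each other, the promoters show how alike neighbouring members are. RefSeq (build GRCm38.p6, not the mm9 build of the ChIP values) gave promoters of 4 of the 6 members, from 250 bases before to 50 bases after the start. They lie at chrX:8461677-8461976 (minus strand) for Ssxb2, chrX:8690795-8691094 (minus strand) for Ssxb8, chrX:8748180-8748479 (plus strand) for Ssx9 and chrX:8803441-8803740 (plus strand) for Ssxb5. They are written 5′ to 3′ on the strand of the gene, and capitals mark bases inside an exact match of at least 50 bases to the promoter of another Ssx gene in the same RefSeq table.
Ssxb2: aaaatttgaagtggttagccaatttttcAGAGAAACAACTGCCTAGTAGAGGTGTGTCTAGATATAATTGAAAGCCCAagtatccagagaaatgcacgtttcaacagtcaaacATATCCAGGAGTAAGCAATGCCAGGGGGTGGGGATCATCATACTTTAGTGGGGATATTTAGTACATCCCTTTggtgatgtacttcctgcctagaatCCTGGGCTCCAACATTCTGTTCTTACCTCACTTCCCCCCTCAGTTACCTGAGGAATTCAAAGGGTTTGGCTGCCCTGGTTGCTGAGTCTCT
Ssxb8: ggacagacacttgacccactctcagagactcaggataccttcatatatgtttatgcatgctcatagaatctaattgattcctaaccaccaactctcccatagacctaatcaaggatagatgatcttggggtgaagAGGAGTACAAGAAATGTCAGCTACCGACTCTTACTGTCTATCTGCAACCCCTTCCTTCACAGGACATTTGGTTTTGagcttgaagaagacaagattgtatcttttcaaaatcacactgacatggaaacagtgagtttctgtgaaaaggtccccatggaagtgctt
Ssx9: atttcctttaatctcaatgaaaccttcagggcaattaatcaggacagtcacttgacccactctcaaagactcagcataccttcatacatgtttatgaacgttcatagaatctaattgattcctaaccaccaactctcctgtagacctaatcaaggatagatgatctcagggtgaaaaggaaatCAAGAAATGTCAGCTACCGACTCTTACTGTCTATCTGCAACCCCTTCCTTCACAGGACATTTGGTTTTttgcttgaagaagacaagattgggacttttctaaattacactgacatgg
Ssxb5: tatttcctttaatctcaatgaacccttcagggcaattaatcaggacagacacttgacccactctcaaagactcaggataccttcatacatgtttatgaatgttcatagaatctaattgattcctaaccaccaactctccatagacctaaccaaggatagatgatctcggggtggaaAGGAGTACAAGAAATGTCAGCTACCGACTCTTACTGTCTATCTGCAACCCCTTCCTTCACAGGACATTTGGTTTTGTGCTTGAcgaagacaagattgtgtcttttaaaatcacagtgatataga
The promoters fell into 2 sequence types. Ssx9 and Ssxb5 were 92.1% identical over the aligned 302 columns, and Ssxb8 was 71.3% identical to Ssxb5, with which it shared an exact run of 76 bases. Ssxb2 was 43.9% identical to Ssxb5, with no exact run above 7 bases, but 93.4% identical to Ssxb3 and 90.2% to Ssxb1. In Ssxb2, 213 of the 300 bases lay in long exact matches to Ssxb1 or Ssxb3. The dinucleotide CG, which reads the same on both strands, occurred 1 time in the promoters of Ssxb2 and Ssxb8, 2 times in Ssx9 and 3 times in Ssxb5, where the median over 32851 RefSeq promoters was 7. At most 1 CG was present in 14.1% of all promoters and at most 3 in 31.4%. No source used here says how reads that fit several copies were counted, so the values of single copies are uncertain where copies are identical, and members are not independent of each other.

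In MD1 EpiSCs the Ssx genes carried H3K27me3 well over input, while in WT EpiSCs they carried high H3K9me3 and H3K27me3 under input. H3K27me3 was higher in MD1 than in WT EpiSCs in all 6, by a median of 5.73 on the log2 scale, or 4.97 when ChIP pairs under 3 were set to 3. Ssxb5 and Ssxb2 had the 2 largest differences among 708 genes, on WT ChIP pairs of 1 and 2. H3K9me3 was lower in MD1 than in WT EpiSCs in all 6 as deposited, by a median of −2.27 (4.84-fold), which became 1.03 when libraries were centred on their medians and −1.09 when they were centred on genes poor in H3K9me3. In MD1 EpiSCs 4 of the 6 had H3K9me3 at least 2-fold over input, as did 5.3% of 736 genes. In MEFs the pattern had the same direction for H3K27me3 in the 5 measured members, with smaller differences, while H3K9me3 was not lower in every member.

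**Figure D1:**
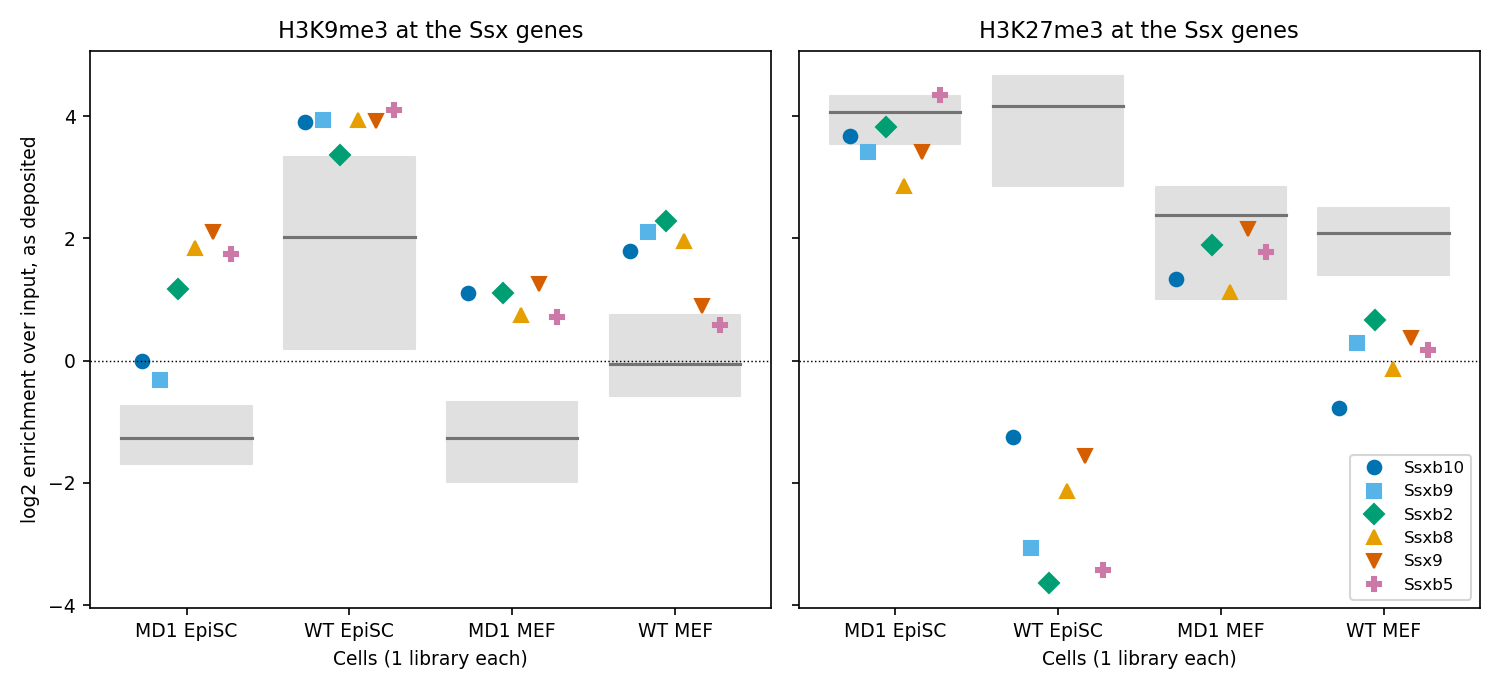
Log2 enrichment over input of H3K9me3 and H3K27me3 in 8 ChIP libraries. Coloured symbols are the 6 Ssx genes in chromosome order, grey boxes span the 25th to 75th percentile of all measured X-linked genes and the grey line is their median. For H3K27me3 the Ssx genes lie between 2.85 and 4.34 in MD1 EpiSCs, and between −3.63 and −1.25 in WT EpiSCs, far below the grey box.

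H3K27me3 gave the largest difference. Ssxb5 had 4.34 in MD1 EpiSCs, against −3.43 in WT EpiSCs. Its ChIP and input pairs were 153 and 13 in MD1 EpiSCs, against 1 and 23 in WT EpiSCs. The difference of 7.77 (95% counting interval 4.85 to 13.14) ranked 1 of the 708 genes measured in both. Ssxb2 had 3.82 in MD1 EpiSCs and −3.63 in WT EpiSCs, the lowest H3K27me3 value of any of the 719 genes in that WT library. Its difference of 7.45 (5.38 to 10.56), on ChIP pairs of 255 in MD1 and 2 in WT, ranked 2 of 708. In MD1 EpiSCs these 2 values were higher than 75.95% (Ssxb5) and 34.1% (Ssxb2) of genes, and the other 4 members were higher than 14.7% to 29.3%. The members' median of 3.54 in MD1 EpiSCs was higher than 25.3% of genes, whose median was 4.07. Their median of −2.60 in WT EpiSCs was higher than 1.11% of genes, whose median was 4.17.

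Ssxb9 had 3.41 in MD1 EpiSCs and −3.07 in WT EpiSCs. That difference of 6.48 (3.59 to 11.87) ranked 6 of 708, on a WT ChIP pair of 1. The other 3 differed by nearly the same amount. Ssxb8 had 2.85 in MD1 and −2.13 in WT EpiSCs, Ssx9 had 3.41 in MD1 and −1.57 in WT EpiSCs, and Ssxb10 had 3.68 in MD1 and −1.25 in WT EpiSCs. Their differences of 4.97, 4.97 and 4.93 ranked 13, 14 and 16. Ssxb10, the longest member, had the largest WT pairs, with a ChIP pair of 11 over an input pair of 56, and its interval was 3.79 to 6.14. No interval of the 6 included 0, but these intervals cover counting error only. The share of all genes with such intervals was not counted.

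At least 2-fold higher H3K27me3 in MD1 EpiSCs was found in 6 of 6 members, where 22.7% of all 708 genes were called in that direction. The median over all genes was −0.069. In MD1 EpiSCs all 6 lay at least 2-fold over input, as did 96.1% of 736 genes, and 0 of 6 lay under input, as did 2.31%. In WT EpiSCs all 6 lay under input, as did 10% of the 719 measured genes, and 0 of 6 lay at least 2-fold over input, as did 87.1% of genes. With ChIP pairs under 3 set to 3, an alternative chosen after the data were seen, the members' median difference was 4.97 and 6 of 6 were past 2-fold, as were 157 of 708 genes. Ssxb2 was then 6.87, Ssxb5 6.18 and Ssxb9 4.89, so the ranks of these 3 rest on WT ChIP pairs of 1 or 2.

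H3K9me3 in MD1 EpiSCs differed from member to member, over a range of 2.41. Ssx9 had 2.10, Ssxb8 1.84, Ssxb5 1.74 and Ssxb2 1.17, whereas Ssxb10 had −0.0051 and Ssxb9 −0.31. The 4 higher genes are the 4 that lie farthest along the chromosome, and the 2 lower ones lie at the start of the cluster. The intervals of Ssx9 (1.29 to 2.93) and Ssxb10 (−1.14 to 1.02) did not overlap, while those of Ssxb9 (−2.10 to 1.17) and Ssxb2 (0.33 to 1.98) did. Each gene's interval overlapped that of the next gene in this order.

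H3K9me3 in WT EpiSCs was high and more even across the family. Values were 4.10 at Ssxb5, 3.94 at Ssxb9, 3.94 at Ssxb8, 3.92 at Ssx9, 3.90 at Ssxb10 and 3.36 at Ssxb2, a range of 0.74. The interval of Ssxb2 (2.88 to 3.85), the lowest of the 6, overlapped those of the other 5. Each of the other 5 was higher than at least 92.6% of the 719 genes, and Ssxb2 was higher than 76.4%.

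The difference between MD1 and WT EpiSCs had its 2 largest sizes at the start of the cluster, though the intervals of Ssxb9 and Ssx9 overlapped. It was −4.25 at Ssxb9 (−6.18 to −2.50) and −3.90 at Ssxb10 (−5.12 to −2.76), and it lay between −2.36 and −1.83 at the other 4, with Ssx9 the smallest (−2.98 to −0.67). On the deposited scale, at least 2-fold lower H3K9me3 was found in 6 of 6 members, beside 82.9% of all 708 genes, so most X-linked genes were lower. The members' median of −2.27 was smaller in size than the −2.98 of all genes. The direction of the members' H3K9me3 difference depends on the scaling: after each library was centred on its median over the 698 fully measured genes, which moved every difference by 3.30, the members' median was 1.03, with 3 of 6 at least 2-fold higher and 0 lower. Of all 708 genes 272 were then higher and 162 lower, with a median of 0.32. After centring on genes outside the H3K9me3-rich set, those under 2-fold over input in WT cells of the same type, the members' median was −1.09, with 4 of 6 lower, as were 452 of 708 genes. The rank within a library does not depend on scaling. In MD1 EpiSCs the members' median of 1.45 was higher than 96.1% of the 736 genes. Counts against input do depend on scaling and are given as deposited. In MD1 EpiSCs, 4 of 6 members were at least 2-fold over input, as were 5.3% of the 736 genes. Under input were 2 of 6 members in MD1 EpiSCs, beside 87.4% of genes, and 0 of 6 in WT EpiSCs, beside 21.6%. All 6 were at least 2-fold over input in WT EpiSCs, as were 64% of genes.

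**Figure D2:**
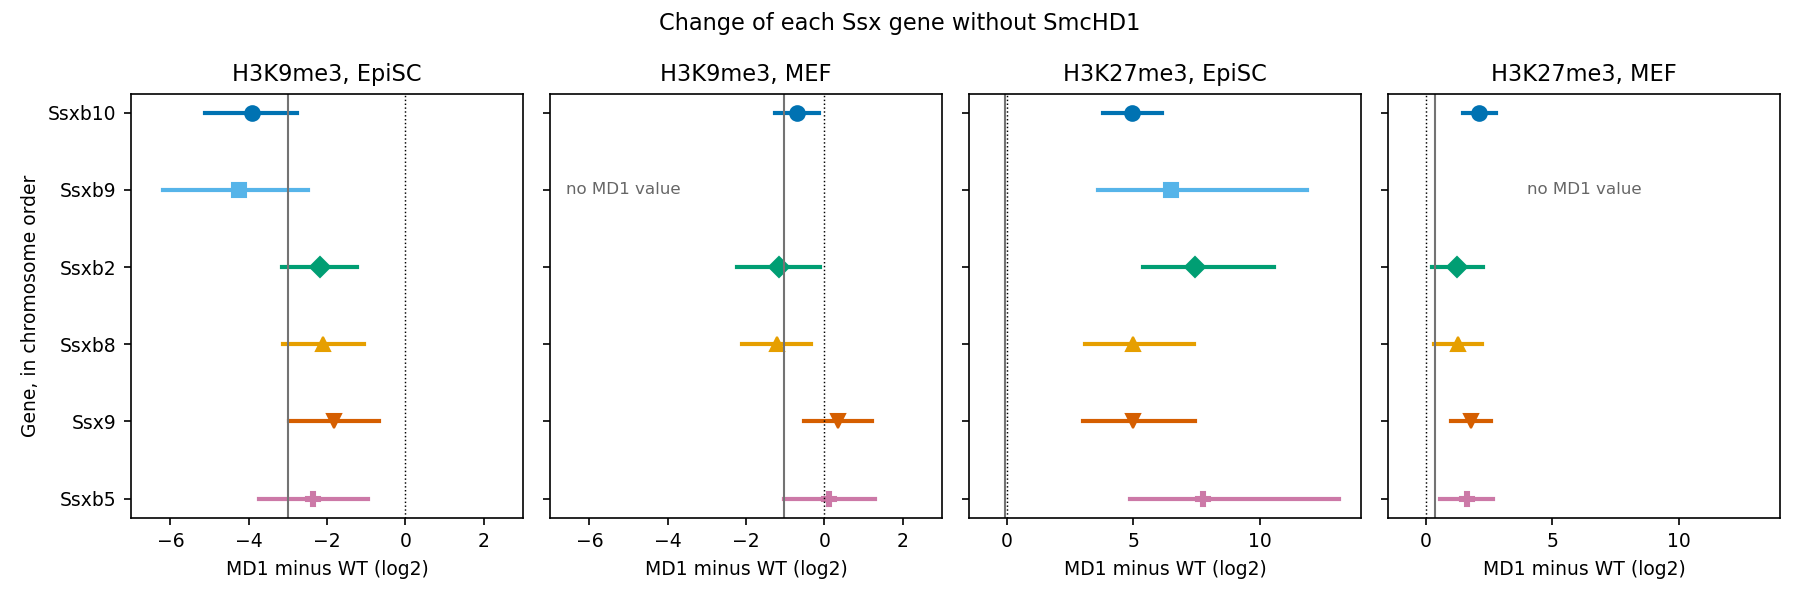
MD1 minus WT difference in log2 enrichment for each Ssx gene, by mark and cell type. Symbols are the differences, bars the 95% counting intervals, the grey vertical line the median of all genes measured in both libraries and the dotted line 0. In EpiSCs the H3K27me3 differences lie between 4.93 and 7.77, while the median of all genes is −0.069.

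In MEFs the family also had low H3K27me3 in WT cells, though nearer to input than in WT EpiSCs. Ssxb2 had 1.90 in MD1 MEFs and 0.67 in WT MEFs, Ssx9 had 2.15 in MD1 and 0.36 in WT MEFs, and Ssxb5 had 1.78 in MD1 and 0.17 in WT MEFs. Ssxb8 had 1.13 in MD1 and −0.14 in WT MEFs, and Ssxb10 had 1.33 in MD1 and −0.77 in WT MEFs. Ssxb9 had 0.29 in WT MEFs. Each WT value was higher than at most 14.6% of the 747 genes. In MD1 MEFs all 5 lay at least 2-fold over input, beside 75.1% of 754 genes, and 0 under it, beside 17.8%. In WT MEFs 2 of 6 lay under input, beside 6.69% of genes, and 0 of 6 lay at least 2-fold over it, beside 80.9%.

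The H3K27me3 differences between MD1 and WT MEFs ran from 1.23 at Ssxb2 (0.24 to 2.23) to 2.10 at Ssxb10 (1.45 to 2.76), with a median of 1.60 (3.04-fold). No interval of the 5 included 0, and the share of all genes with such intervals was not counted. All 5 were at least 2-fold higher, beside 22.3% of 739 genes, and the median of all genes was 0.34. Centring on library medians lowered every difference by 0.28 and left 3 of 5 past 2-fold, as were 118 of 739 genes. Ssxb10 ranked 34 of 739, the highest of the 5. In MD1 MEFs the members' median of 1.78 was higher than 36.5% of the 754 genes, against 8.7% of 747 genes for their median of 0.23 in WT MEFs.

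In MEFs H3K9me3 was over input at every measured member in both genotypes. In MD1 MEFs the 5 measured genes lay close together, with 1.25 at Ssx9, 1.11 at Ssxb2, 1.10 at Ssxb10, 0.74 at Ssxb8 and 0.71 at Ssxb5. All 5 were higher than at least 95.4% of the 754 genes in that library. In WT MEFs Ssxb2 had 2.28, Ssxb9 2.10, Ssxb8 1.96 and Ssxb10 1.79, while the 2 genes at the far end of the cluster were lowest, Ssx9 with 0.90 and Ssxb5 with 0.59. Their intervals (0.27 to 1.52 and −0.42 to 1.57) lay below that of Ssxb2 (1.71 to 2.88) and overlapped those of the other 3. At least 2-fold over input were 3 of 5 members in MD1 MEFs, where 2.92% of genes were, and 4 of 6 in WT MEFs, where 20.3% were. Under input lay 0 of the 5 in MD1 MEFs, where 88.9% of genes did, and 0 of the 6 in WT MEFs, where 52.3% did.

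The H3K9me3 difference between MD1 and WT MEFs was −1.22 at Ssxb8 (−2.10 to −0.34), −1.17 at Ssxb2 (−2.23 to −0.098) and −0.69 at Ssxb10 (−1.25 to −0.13). It was 0.35 at Ssx9 (−0.52 to 1.23) and 0.12 at Ssxb5 (−1.04 to 1.30), and both of these intervals included 0. At least 2-fold lower were 2 of 5 members, beside 51.3% of all 739 genes, and 0 of 5 at least 2-fold higher, beside 0.677%. The median was −0.69 for the members and −1.02 for all genes. After centring on library medians 0 of 5 members were at least 2-fold lower, as were 165 of 739 genes, and after the other centring 0 of 5, as were 187, so a lower H3K9me3 at these genes in MD1 MEFs depends on the scaling.

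For both marks on the deposited scale, 6 of 6 members in EpiSCs had H3K9me3 at least 2-fold lower and H3K27me3 at least 2-fold higher in MD1, as did 22.5% of all 708 genes. In MEFs 2 of 5 did, as did 10.6% of 739 genes. In EpiSCs the members stood at the top edge of all genes for H3K27me3 and in the middle of them for H3K9me3.

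**Figure D3:**
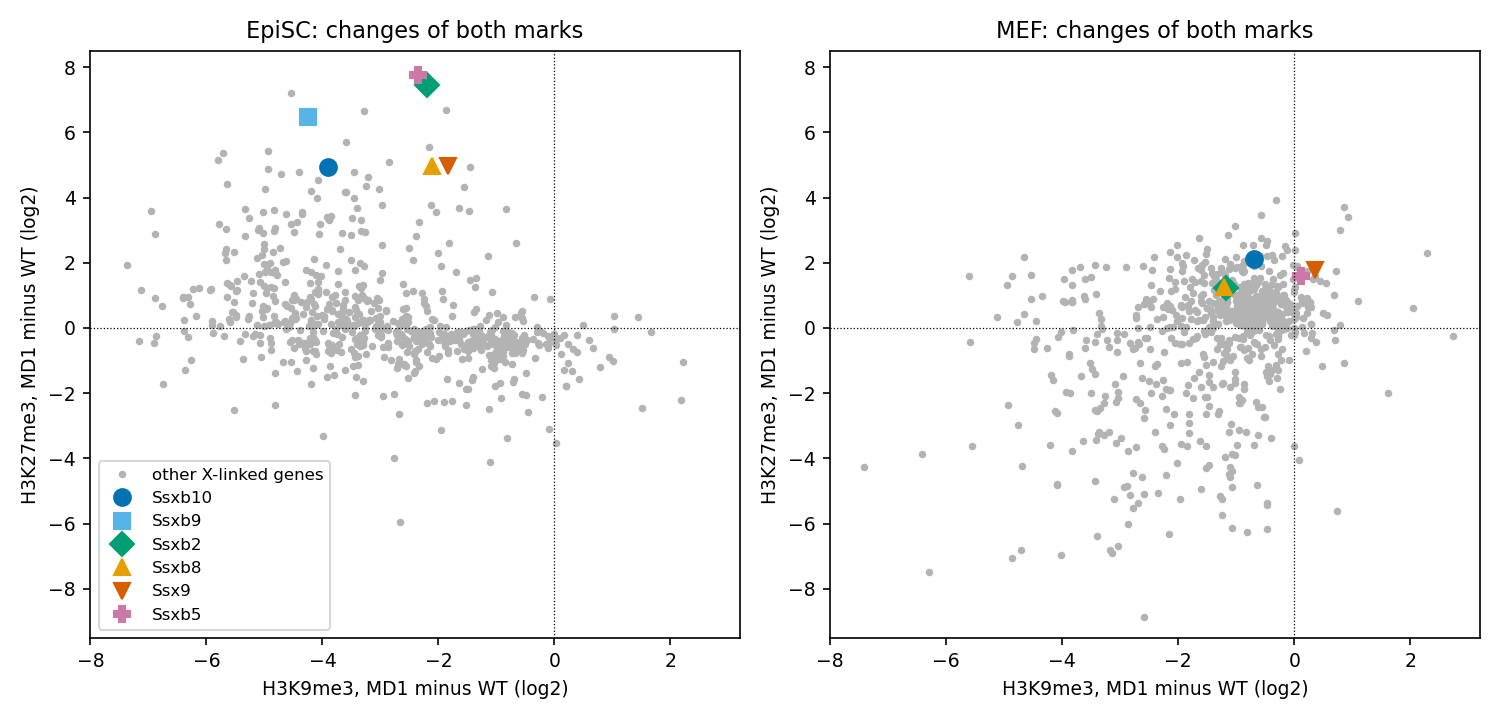
MD1 minus WT difference of H3K27me3 (vertical) against that of H3K9me3 (horizontal), both in log2 as deposited, for each X-linked gene in EpiSCs (left) and MEFs (right). Grey points are other genes and coloured symbols the Ssx genes. In EpiSCs the Ssx genes have H3K27me3 differences of 4.93 or more with H3K9me3 differences between −4.25 and −1.83.

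Between the WT cell types the 2 marks differed in opposite directions at these genes. H3K9me3 was lower in WT MEFs than in WT EpiSCs in all 6, between −3.52 at Ssxb5 and −1.08 at Ssxb2, with a median of −2.04 close to the −1.90 of all 711 genes. All 6 were at least 2-fold lower, beside 68.2% of genes. H3K27me3 was higher in WT MEFs than in WT EpiSCs at the members, by a median of 2.68, where the median of all genes was −1.88. A 2-fold increase was reached by 5 of 6, beside 6.47% of genes. The largest of these was 4.30 at Ssxb2 (2.19 to 7.43) and the smallest 0.48 at Ssxb10 (−0.65 to 1.69). Centring on library medians moved the H3K9me3 differences by 2.13 and left a median of 0.087, whereas centring on genes outside the H3K9me3-rich set moved them by 0.12 and left a median of −1.92 with 5 of 6 lower, as were 469 of 711 genes. Their direction therefore depends on which centring is used. The centrings added 2.07 and 2.49 to the H3K27me3 differences, and with ChIP pairs under 3 set to 3 the H3K27me3 median was 1.96.

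Between the MD1 cell types, H3K27me3 was lower in MD1 MEFs than in MD1 EpiSCs at all 5 measured Ssx genes, between −2.56 at Ssxb5 and −1.26 at Ssx9, with a median of −1.92 beside −1.67 over all 726 genes. All 5 were at least 2-fold lower, as were 82.5% of genes, and 0 were higher, as were 1.93%. After centring on library medians the members' median was −0.23 and 0 of 5 were at least 2-fold lower, as were 187 of 726 genes, so these calls depend on the scaling. After the other centring the values were −0.17, 0 of 5 and 182 genes, and Ssx9 was above 0 after both. For H3K9me3 the median difference over all genes was −0.016, with 5th and 95th percentiles of −2.32 and 1.42. Inside that spread, the Ssx genes ran from −1.09 at Ssxb8 (−2.10 to −0.093) to 1.11 at Ssxb10 (−0.0027 to 2.31). At least 2-fold lower were 2 of 5, as were 19% of genes, and 1 was higher, as were 10.3%.

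The low H3K27me3 in WT EpiSCs was not limited to Ssx genes and was shared by the measured genes nearest to them. Between the members and within 100 kb of them lay 8 other genes of the table, 5 of which are not Ssx genes. Those 5 had WT EpiSC H3K27me3 between −3.43 at Gm6592 and −1.11 at Slc38a5, an amino acid transporter gene, and WT EpiSC H3K9me3 between 3.50 and 4.49. The members lay inside a run of 18 consecutive measured genes with H3K27me3 under input in WT EpiSCs, from Wdr13 to 4930402K13Rik (chrX:7700427-8683468). This run, looked for after the values were seen, was the longest such run in the table. It held 18 of the 72 genes under input, so most such genes lay elsewhere on the X. The run began after Gm6787 (0.59) and ended before Lancl3 (3.14).

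On the side before Ssxb10, genes were binned by the distance of their midpoint from its start, at −1000 to −500 kb, −500 to −250 kb, −250 kb to the start, and the next 500 kb, which hold the cluster. In MD1 EpiSCs the median H3K27me3 of these bins was 3.08 (18 genes), 3.46 (12), 3.79 (10) and 3.41 (8). In WT EpiSCs it was lower the nearer a bin lay to the cluster, with 3.07 (17 genes), 2.09 (12), −0.75 (10) and −3.07 (7). WT EpiSC H3K9me3 was high throughout, with bin medians of 3.52, 3.51, 4.12 and 3.94. The bins were set after the profile was seen, hold under 20 genes each and share libraries, so they are a description.

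H3K9me3 in MD1 EpiSCs had a different profile. The 4 measured non-Ssx genes around the cluster lay between −1.39 at Ftsj1, an RNA methyltransferase gene, and 0.21 at B630019K06Rik. From Ssxb2 to Ssxb5 every measured Ssx gene lay between 0.60 and 2.10, including 0.60 at Ssxb6 and 1.04 at Ssxb3. In MD1 MEFs the 5 members lay between 0.71 and 1.25, and the 5 non-Ssx neighbours between −2.97 and 0.71, with Gm6592 at the top. Ssxb3 (0.29) and Ssxb6 (−0.066) were below the members there. In H3K27me3 they were 1.91 and 1.78 in MD1 MEFs, against 0.035 and 1.11 in WT MEFs. The difference was 1.87 at Ssxb3 (0.71 to 3.02). At Ssxb6 it was 0.67, with an interval that included 0 (−1.13 to 2.32), on WT ChIP and input pairs of 12 and 6.

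**Figure D4:**
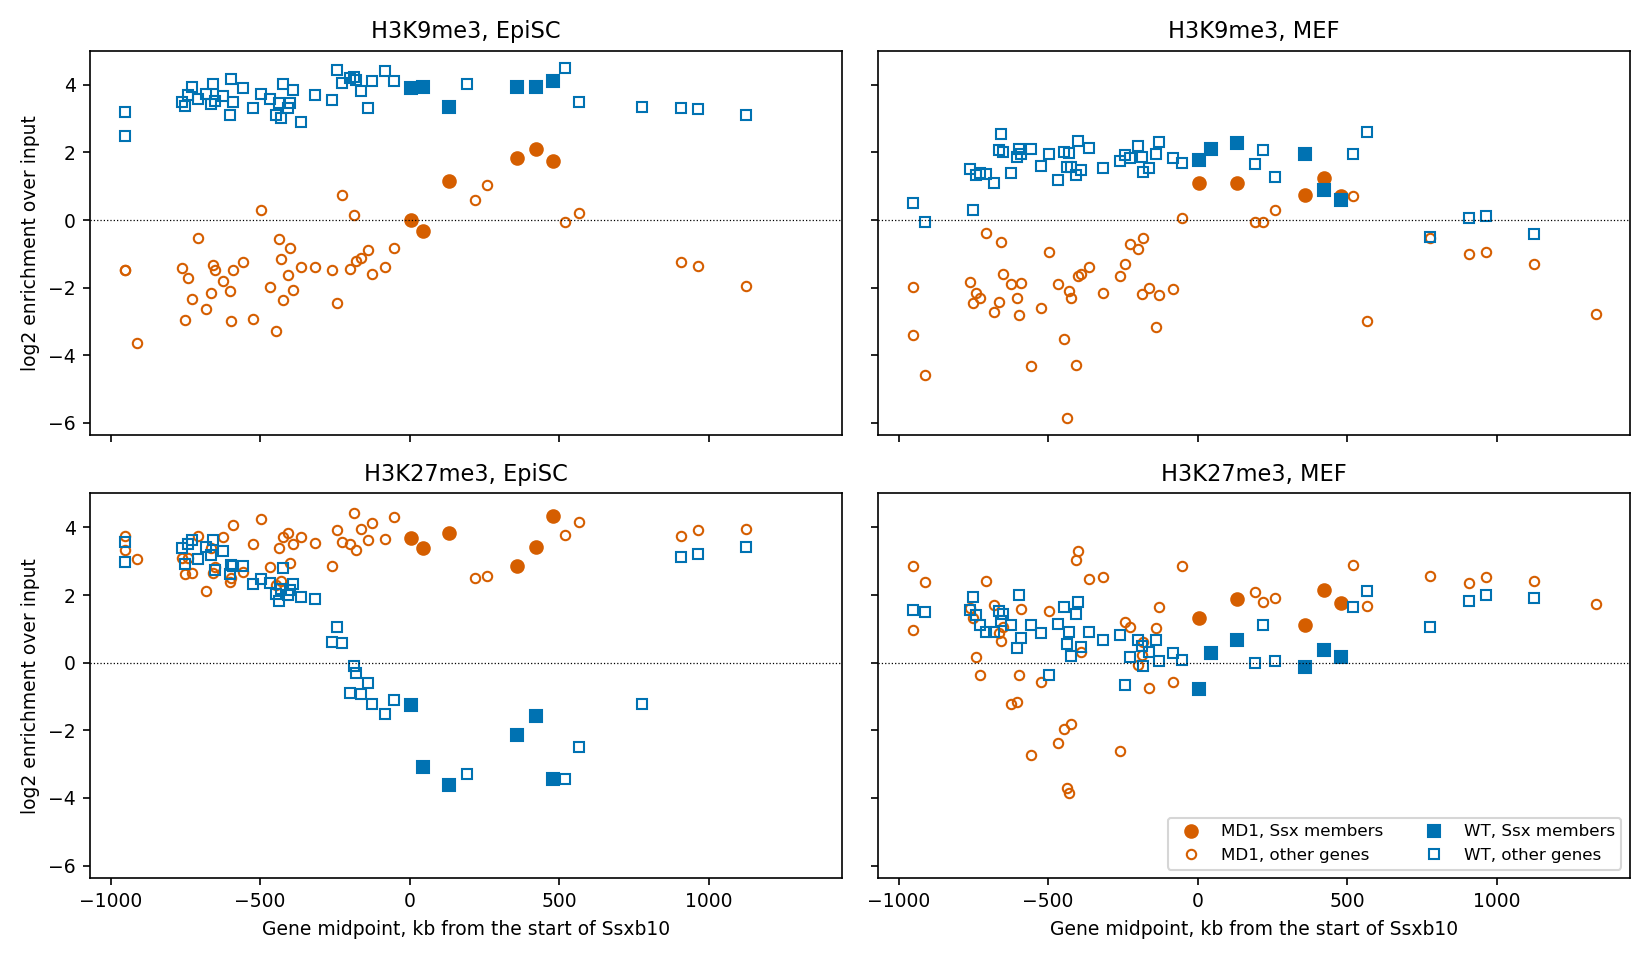
Log2 enrichment over input of H3K9me3 (top) and H3K27me3 (bottom) at genes around the Ssx cluster, by the distance of each gene's midpoint from the start of Ssxb10 in kb. Orange circles are MD1 and blue squares WT, and filled symbols are the 6 Ssx members. For H3K27me3 the members lie between 2.85 and 4.34 in MD1 EpiSCs, while in WT EpiSCs values lie lower toward the cluster, down to −3.63 at Ssxb2.

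Among non-member genes with values in all 8 libraries, the 5 with the most similar profile lay elsewhere on the X. The search left out Ssxb1, Gm14459, Ssxb6 and Ssxb3, which lie between members and lack values in some or all libraries. Likeness was the root-mean-square difference between a gene's 8 values and the members' median in each library. The 5 closest of 693 other genes were Gm362 (0.69), Dcaf12l1 (0.78), Prrg1 (0.79), Wdr44 (0.84) and Gm7134 (0.84), where the median over all was 3.16. They lie 14.9 to 99.2 Mb from the nearest member. Gm362 had H3K27me3 of 3.26 in MD1 EpiSCs and −3.43 in WT EpiSCs, and H3K9me3 of 2.12 in MD1 and 3.99 in WT EpiSCs. Among the 5 members with all 8 values, which leaves out Ssxb9, Ssxb8 was nearest to the family median (0.44) and Ssxb10 farthest (0.81). Closer to that median than Ssxb10 were 3 non-member genes.

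Other X-linked testis gene families were mostly over input in WT EpiSC H3K27me3, as were most of all genes. A list of 64 such genes, among them Xlr, Mage, Samt and Akap genes, had 60 in the table and 24 with values in both EpiSC genotypes. Of the 25 with a WT EpiSC value, 3 had H3K27me3 under input, beside 10% of all 719 genes. The median of the 25 was 4.16, beside 4.17 for all genes. At least 2-fold higher H3K27me3 in MD1 EpiSCs was found in 5 of 24, beside 22.7% of all genes, and lower in 2, beside 11.3%. The list's median difference was 0.078. The largest increases were at Pet2, with 1.92 in MD1 and −1.67 in WT EpiSCs, and Xlr, with 4.51 in MD1 and 1.01 in WT EpiSCs. The largest decreases were −2.49 at Trap1a and −1.05 at Samt3. As deposited, H3K9me3 was at least 2-fold lower in 20 of 24, beside 82.9% of all genes, with a median of −2.30. Akap14, an A-kinase anchoring protein gene, had −2.11 in MD1 and 3.79 in WT EpiSCs. The difference was −5.76 at Esx1, a homeobox gene, −0.53 at Magea10 and −0.20 at Samt4. High H3K9me3 in MD1 EpiSCs was not limited to Ssx genes. Of the 28 list genes with a value there, 8 were at least 2-fold over input, beside 5.3% of all genes. The list's median was −0.38, beside −1.27 for all genes.

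In MEFs H3K27me3 was at least 2-fold higher in MD1 in 12 of 27 genes of that list, beside 22.3% of all genes, and lower in 3, beside 24%, with a median of 0.89. Fam47c (3.92) and H2bfm (3.41) had the largest increases, and Tktl1 (−2.42), a transketolase-like gene, and Akap14 (−2.09) the largest decreases. H3K9me3 was at least 2-fold lower in 9 of 27, beside 51.3% of all genes, and higher in 0, beside 0.677%, with a median of −0.89. It ranged from −4.67 at Esx1 and −2.54 at Trap1a to 0.28 at Usp26, a deubiquitinase gene of the testis, and 0.92 at H2bfm. In MD1 MEFs, 6 of the 29 list genes with a value had H3K9me3 at least 2-fold over input, beside 2.92% of all genes. The list's median there was −0.47, beside −1.26 for all genes. No test of a difference between the Ssx genes and this list was made.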

How the data were processed

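Tools named in the submitters' processing notes are BWA, cutadapt and SAMtools, and the build is mm9. No source used here gives tool versions, the counting rule, any minimum or pseudocount, or which X the reads come from. For 952 X-linked genes the authors deposited a log2 enrichment per ChIP library. Starts in the deposited table count from 0: of 841 gene names matched to RefSeq, 346 had equal length when read so and 36 otherwise.

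Members and gene lists were chosen with earlier results of these data known. Named genes are the 6 members, genes between them or within 100 kb, the 5 most similar genes over 8 libraries, and 2 extremes in each direction of a testis list. Whole-number pairs were recovered with denominators up to 30000 and a relative tolerance of 1e-12, which matched 100% of values, and the procedure was tested on simulated data. Real counts may be multiples of these smallest pairs or include a pseudocount. Single-value intervals are exact binomial (Clopper-Pearson) and intervals of differences exact conditional odds-ratio intervals (scipy 1.17.1, Python 3.11.15). Calls used 2-fold. Alternatives were 2 centrings, a pseudocount of 0.1, an input minimum of 20, a 3-fold threshold and, added after the data were seen, a floor of 3 on ChIP pairs. Promoters were aligned globally with Biopython 1.88. No p-values were computed.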

Additional observations from a re-analysis of the deposited data

Results flagged for a closer look

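On the deposited scale, H3K9me3 at Ssx9 and Ssxb5 was lower in MD1 than in WT cells in EpiSCs and slightly above it in MEFs. At Ssx9 the MD1 minus WT difference was 0.35 in MEFs and −1.83 in EpiSCs, and at Ssxb5 it was 0.12 in MEFs and −2.36 in EpiSCs. Both MEF intervals included 0. After centring on library medians both genes were above 0 in both cell types, with 1.52 in MEFs and 1.48 in EpiSCs at Ssx9, and 1.29 in MEFs and 0.94 in EpiSCs at Ssxb5, so the opposite directions hold on the deposited scale and not on this one. Each group is 1 library, and the difference between cell types was not tested across samples. By counting error alone, the MEF difference minus the EpiSC difference was 2.18 at Ssx9 (95% normal-approximation interval 0.84 to 3.52) and 2.48 at Ssxb5 (0.83 to 4.13). It was 3.22 at Ssxb10 (2.01 to 4.42), 1.02 at Ssxb2 and 0.88 at Ssxb8, beside a median of 1.57 over the 698 genes with all values.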

How the results depend on the processing

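H3K27me3 differences between MD1 and WT cells kept their direction at every member under the 2 centrings, the pseudocount of 0.1, the input minimum of 20 and the floor of 3 on ChIP pairs. H3K9me3 differences did not. After centring on the library median of genes with all 8 values, the EpiSC H3K9me3 median was 1.03 with 0 of 6 members lower (162 of 708 genes) and 3 higher (272). Ssxb2 was then 1.11, Ssxb8 1.20, Ssx9 1.48 and Ssxb5 0.94. The MEF median was 0.48, with 0 of 5 lower (165 of 739 genes) and 2 higher (85). For WT MEF minus WT EpiSC it was 0.087, with 1 of 6 lower (93 of 711 genes) and 1 higher (244), and Ssxb10 was 0.022, Ssxb9 0.29, Ssxb2 1.05 and Ssxb8 0.15. After centring on genes outside the H3K9me3-rich set, the H3K9me3 median was −1.09 in EpiSCs, −1.92 for WT MEF minus WT EpiSC with 5 of 6 lower (469 of 711 genes), and 0.30 in MEFs, where 0 of 5 were lower (187 of 739 genes) and 2 higher (55). For H3K27me3 in MEFs, 3 of 5 members were at least 2-fold higher after either centring (118 of 739 genes) and 3 of 5 at a 3-fold threshold (85), at which 0 of 5 were lower in H3K9me3 (244). H3K27me3 in MD1 MEF minus MD1 EpiSC, recomputed as an addition after the data were seen, had a median of −0.23 after the first centring, with 0 of 5 lower (187 of 726 genes) and Ssx9 at 0.44, and of −0.17 after the second, with 0 of 5 lower (182), Ssx9 at 0.49 and Ssxb8 at 0.027. These moves follow from the shift each centring adds to every gene. In the same comparison H3K9me3 was lower in 1 of 5 with the pseudocount (101 genes), in 1 of the 4 left by the input minimum (79) and in 0 of 5 at 3-fold (69), where 0 were higher (28). The input minimum left 3 members between MD1 and WT EpiSCs, with 3 lower in H3K9me3 (459 genes) and 3 higher in H3K27me3 (118), and 4 between the WT cell types, with 3 higher in H3K27me3 (25). In the 8 comparisons, single-gene differences of members stayed inside their counting intervals under the pseudocount, the input minimum and the floor. Depth limits the WT EpiSC H3K27me3 values, whose ChIP pairs were 1 to 11 in the 6 members. No paired analysis was possible because each group has 1 library.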

Other observations

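Higher H3K27me3 in MD1 than in WT EpiSCs covered a run of 22 consecutive measured genes in EpiSCs, from the histone deacetylase gene Hdac6 to B630019K06Rik (chrX:7507248-8472090), each at least 2-fold higher. It was the longest such run in the table, with differences between 1.18 and 7.77 and a median of 4.91. Eras before it had 0.80 and Lancl3 after it 0.62. The run was looked for after the values at the Ssx genes were seen.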
